A study of Rattus norvegicus with 42 samples.

Results

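The early secretory pathway machinery of the rat was represented here by 95 probe sets for 62 genes, out of 31042 probe sets and 14217 genes on an Affymetrix rat expression array. The genes were chosen by symbol: the Sec, Ssr, Srp, Cop, Tmed, Spcs and Pdia families of the endoplasmic reticulum (ER) and the vesicle coats, together with P4hb, Hspa5, Hsp90b1, Canx and Calr. A probe set was taken only where the array annotation listed a single gene for it, so 2 probe sets listed for both Srprb and Tf (transferrin) were left out. The series held 42 arrays in 14 groups of 3 replicate arrays. The groups were pure liver, pure brain and pure lung RNA of an untreated rat aged 9 to 12 weeks, and 11 mixtures of the labelled RNA (cRNA) of these tissues in stated percentages; the labels gave no strain or sex. Because the replicates were technical arrays of RNA from 1 animal, the p-values below measured the spread between arrays and not between animals. In bulk tissue RNA, fewer cells of a type and less of the RNA per cell cannot be told apart.

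Secreted and membrane proteins enter the ER as they are made. The signal recognition particle (SRP) brings the ribosome to its receptor, the Sec61 translocon opens the membrane channel, the translocon-associated protein (TRAP) complex assists, and signal peptidase removes the signal sequence. Chaperones and protein disulfide isomerases then fold the chain, COPII coats with p24 cargo receptors carry it to the Golgi, and COPI coats bring membrane and escaped ER proteins back. Hepatocytes secrete most plasma proteins and are rich in rough ER; in the lung, alveolar type 2 cells and plasma cells are secretory, and neurons send membrane proteins along axons and dendrites.

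Levels were log2 values of robust multi-array average (RMA) summaries, with array medians between 5.48 and 5.83. The median SD over the 3 replicate arrays was 0.12 in liver, 0.092 in brain and 0.088 in lung. Marker genes were checked first. Neuron markers were higher in brain for 9 of 9 genes, oligodendrocyte markers for 6 of 6, and alveolar type 2 markers were higher in lung for 7 of 7. The 13 hepatocyte markers had a median of 13.12 in liver, against 6.06 in brain and 3.65 in lung, and their summed level was 16.79 to 16.83 in the liver arrays, 13.77 to 13.83 in the brain arrays and 8.21 to 8.37 in the lung arrays. Of these 13 genes, 10 were called higher in brain than in lung, and 1 lay under 4 in brain against 9 in lung. The albumin gene Alb had mean levels of 14.31, 12.21 and 5.07 in liver, brain and lung. The RNA labelled brain thus carried transcripts of genes on the hepatocyte list, Alb among them. Neither their source nor their part in the brain values below was tested. The pancreatic enzyme gene Cpa1 averaged 11.70 in liver, 3.87 in brain and 3.48 in lung, but most of its list did not share this. Of 11 pancreatic acinar genes, 1 was called higher and 1 lower in liver than in lung. Against brain, 3 were called higher and 1 lower in liver. The liver median was 4.20, against 3.37 in brain and 3.37 in lung, and 5 lay under 4 in liver. Plasma cell and B cell markers were called higher in lung than in liver for 6 of 7 genes and fibroblast markers for 6 of 6, and their part in the lung values was not tested either.

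As a group, the pathway genes were most often highest in liver and lowest in brain. The mean was highest in liver for 42 of the 62 genes, in brain for 13 and in lung for 7. The lowest mean was in brain for 41 genes, in lung for 11 and in liver for 10. Over all 14217 genes, 38.1% were highest in liver and 41.9% lowest in brain. The order liver, lung, brain from high to low held for 37 of the 62 genes. The members were bright: the median of their mean levels was 9.04 against 6.79 for all genes. Only Pdia2 and Tmed6 stayed below the median of all values, 5.73, in each pure tissue, at 3.13 to 3.75 and 3.05 to 3.82 over the 9 arrays, and neither was called in any pure tissue comparison. No gene was removed for a low value, so all 62 were tested.

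**Figure D1:**
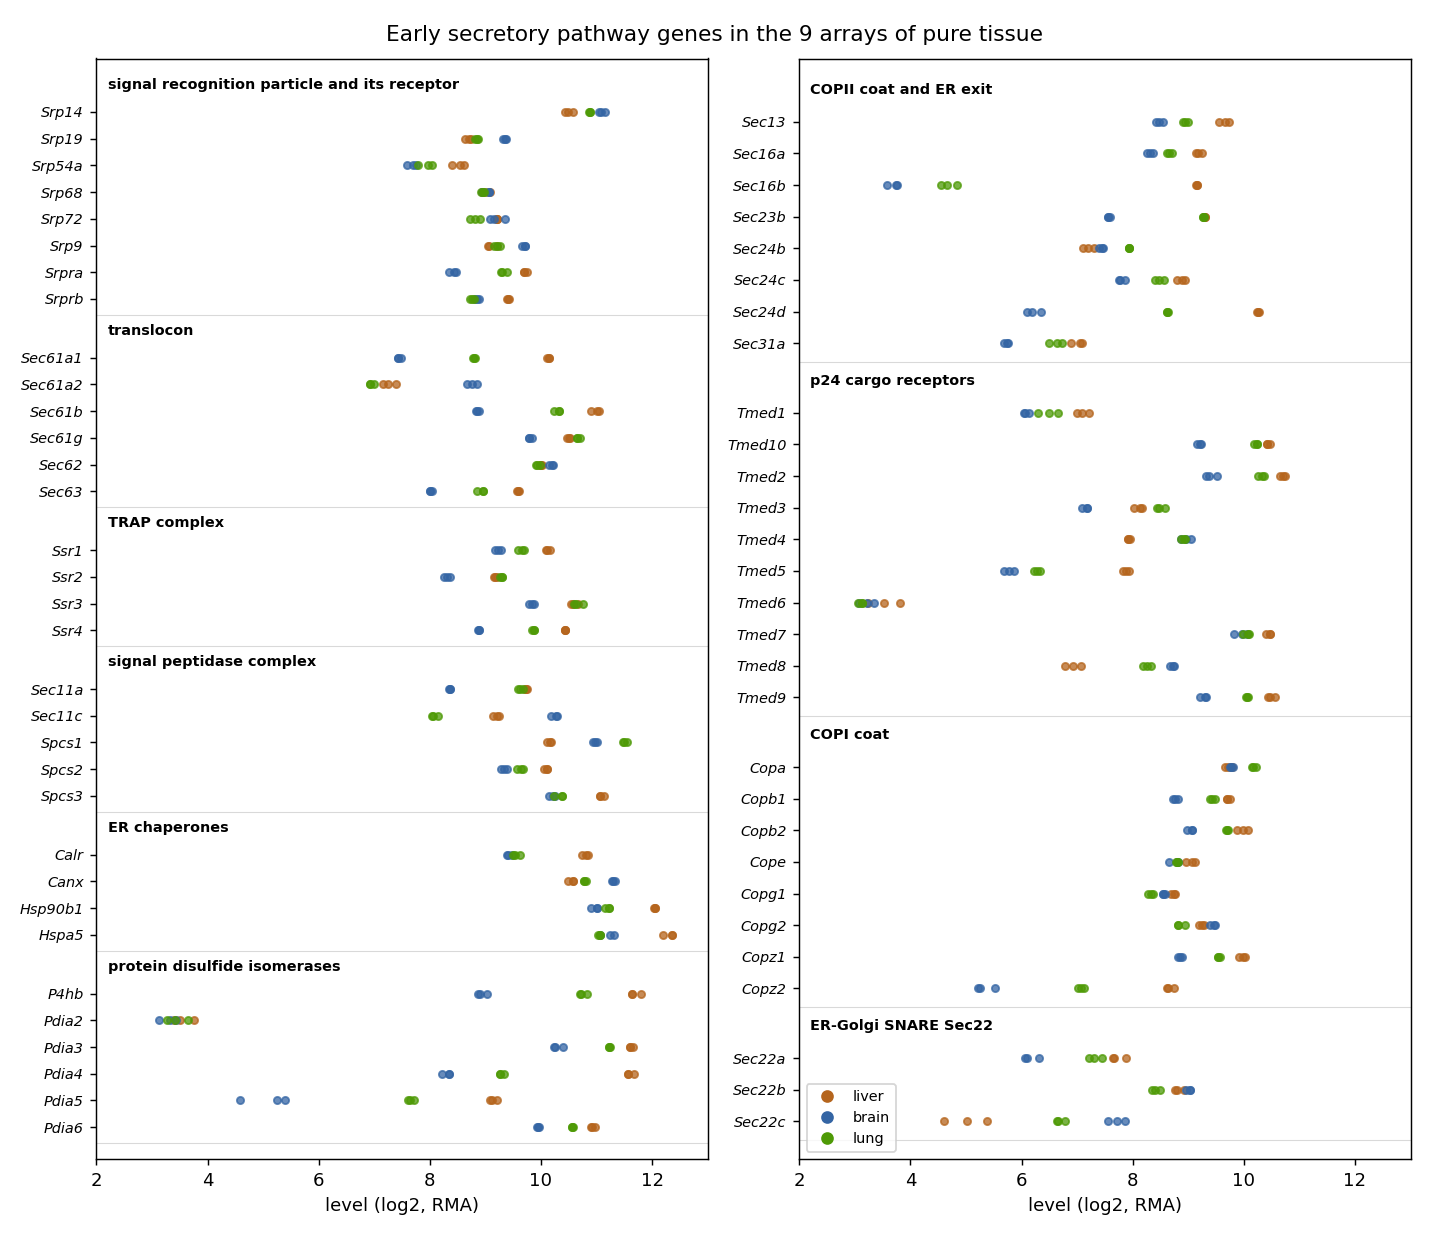
Level (log2, RMA) of the 62 genes on the 9 arrays of pure tissue, grouped by role, with 1 point per array coloured by tissue. Liver points lie farthest to the right for most genes; Sec16b, Pdia5, Sec24d and Copz2 show the widest gaps between liver and brain, and Sec61a2, Sec11c and Sec22c have their brain points at the right.

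The comparison of liver with brain called 27 genes higher in liver and 5 higher in brain at 2-fold or more with an adjusted p under 0.05 (limma fit over all 42 arrays, read from the brightest probe set of each gene); 30 were not called. Over all genes, 19.3% were called higher in liver and 20.0% higher in brain. The median difference of the 62 genes was 0.92 on the log2 scale, against 0.19 for all genes. Liver against lung gave 10 genes higher in liver and 3 higher in lung, with 13.8% and 20.6% of all genes as background, and a median of 0.39 against 0.03. Brain against lung gave 3 genes higher in brain and 11 higher in lung, with 15.5% and 20.8% as background, and a median of -0.49 against -0.09. In all, 34 of the 62 genes were called in at least 1 of these comparisons, and 56.4% of all genes were. The comparisons share arrays, so their counts are not independent of one another.

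How the arrays were scaled moved these counts. Each array was also set to a curve through its spiked hybridisation controls, transcripts added in fixed amounts. On each array, all levels below the dimmest control were moved by the same amount. The control bioB averaged 8.48 in liver, 7.62 in brain and 7.55 in lung on the deposited scale. With the curve, the all-gene medians shifted to -0.62 for liver minus brain and -0.86 for liver minus lung. The member median was then 0.41 for liver minus brain and turned to -0.33 for liver minus lung. The calls were then 16 higher in liver and 9 higher in brain, and 4 higher in liver and 8 higher in lung. The 11 genes that lost their call for liver over brain, at 0.15 to 0.95, were Copz1, Sec11a, Sec13, Sec22a, Sec24c, Sec31a, Sec63, Srpra, Tmed1, Tmed9 and Tmed10. The genes that kept their call for liver over lung were Sec16b, Pdia4, Sec24d and Hspa5. With each array centred on its median, they were 38 and 3 for liver against brain. Relative to the median of all genes, the member median was 0.71 to 1.03 for liver minus brain over the deposited scale and the 4 other scaling and background settings tried, 0.32 to 0.53 for liver minus lung, and -0.41 to -0.38 for brain minus lung. The 1.03 and 0.53 came from the control curve, which moves bright and dim genes by unlike amounts.

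Called higher in liver than in both other tissues were 9 genes, Sec16b, Pdia5, Sec24d, Copz2, Pdia4, Sec61a1, Tmed5, Calr and Hspa5, where 9.61% of all genes had this pattern. Called higher in brain than in both others were Sec61a2, Sec11c and Sec22c, against 11.7% of all genes. None was called higher in lung than in both others, against 11.5%. Lowest in brain by both comparisons were 10 genes, Sec61a1, Sec61b, Sec11a, P4hb, Pdia5, Sec23b, Sec24d, Tmed10, Copz2 and Sec22a, against 9.19%. Tmed8 and Sec22c were lowest in liver (8.38% of all genes) and Sec11c was lowest in lung (3.14%). Several genes lay close to the 2-fold limit. For liver minus brain, Tmed1 at 1.01 and Tmed4 at -1.03 were just inside, and Pdia6 at 0.98 and Tmed3 at 0.96 just outside. For brain minus lung, Sec22c at 1.02 and Tmed10 at -1.02 were just inside, with Pdia4 and Sec16b at -0.99 just outside, the latter on levels under 5.73 in both tissues. Without brain replicate 1, Tmed10 was no longer called for brain against lung (-1.0).

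**Figure D2:**
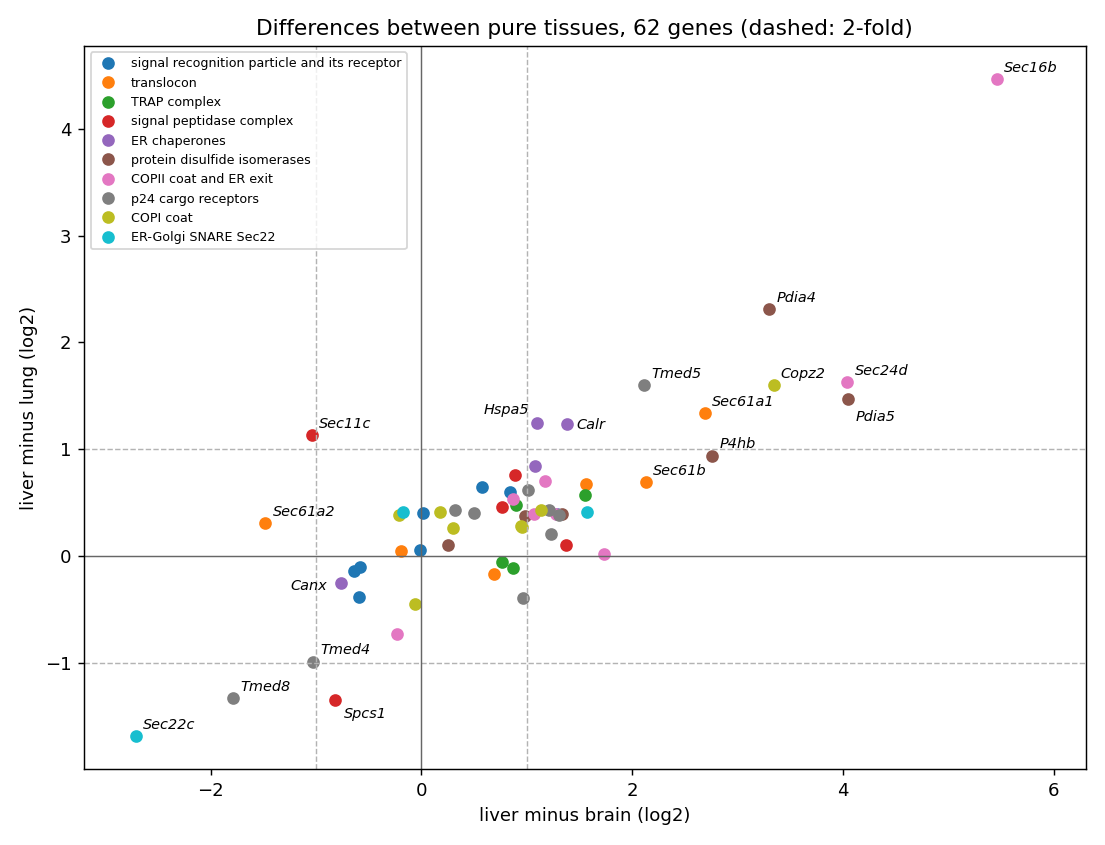
Liver minus brain (horizontal axis) against liver minus lung (vertical axis), both as log2 differences of means of 3 arrays, for the 62 genes coloured by role, with dashed lines at 2-fold. The axes share the liver arrays, so the slope of the cloud is no result; Sec16b stands alone at 5.46 and 4.47, and Sec22c, Tmed8 and Tmed4 lie on the other side at -2.71, -1.79 and -1.03 for liver minus brain.

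The SRP and its receptor had 1 of 8 genes called by its brightest probe set, for liver against brain. For this and the roles that follow, the shares of all genes called were 19.3% higher in liver than in brain and 20.0% higher in brain. With the control curve none was called higher and 2 were called lower in liver than in brain, with the median at -0.66, and 1 was called lower in liver than in lung. The gene called on the deposited scale was Srpra, the receptor subunit that binds the particle, at 9.69, 9.75 and 9.69 in liver, 8.43, 8.35 and 8.47 in brain, and 9.28, 9.29 and 9.39 in lung. Its liver arrays lay above all brain and lung arrays, and liver exceeded brain by 1.29 ± 0.06 (SE, log2), or 2.45-fold (limma adjusted p = 1.04e-20). Srp54a, the subunit that binds the signal sequence, was at 8.62, 8.40 and 8.55 in liver, 7.70, 7.59 and 7.75 in brain, and 7.78, 8.03 and 7.96 in lung, a liver minus brain difference of 0.84 that did not reach 2-fold. Srprb, the membrane anchor of the receptor, was not called by its brightest probe set (0.65 for liver minus lung) but was by another (1.12). The particle proteins Srp9, Srp14 and Srp19 had their highest means in brain, with liver minus brain differences of -0.64 to -0.58, under the fold limit.

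The translocon held 3 genes called higher in liver than in brain and 1 called higher in brain. Its channel-forming subunit is encoded by a pair of genes that differed in opposite directions between liver and brain. Sec61a1 was at 10.10, 10.15 and 10.14 in liver, 7.42, 7.48 and 7.42 in brain, and 8.78, 8.81 and 8.79 in lung. The arrays of each tissue were separate from those of the others, with liver over brain by 2.69 ± 0.04 (6.45-fold, limma adjusted p = 9.01e-34) and over lung by 1.34 (2.53-fold). Sec61a2 was at 7.16, 7.39 and 7.24 in liver, 8.75, 8.66 and 8.84 in brain, and 6.92, 7.0 and 6.93 in lung. Here the brain arrays were above all others, with a liver minus brain difference of -1.48 ± 0.06 (2.80-fold, limma adjusted p = 1.64e-21) and a brain minus lung difference of 1.80 (3.47-fold). Sec61b, a small subunit of the channel, was at 10.90 to 11.05 over the liver arrays, 8.83, 8.88 and 8.85 in brain, and 10.33, 10.32 and 10.24 in lung, and its brain arrays were the lowest, 4.38-fold under liver and 2.72-fold under lung. Sec63, which couples the channel to the chaperone in the ER lumen, was 2.96-fold higher in liver than in brain. The small subunit gene Sec61g and Sec62, a channel partner in post-translational import, were not called in any pure tissue comparison. The liver minus lung call of Sec61a1 was lost with the control curve, at 0.77.

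In the TRAP complex, 1 of 4 genes was called by its brightest probe set, and 2 more by other probe sets. Ssr4 was at 10.43 on each of the 3 liver arrays, at 8.86, 8.89 and 8.89 in brain, and at 9.84, 9.88 and 9.87 in lung. Liver was above brain without overlap, by 1.55 ± 0.04 (2.93-fold, limma adjusted p = 1.99e-27). Ssr2 was at 9.20, 9.18 and 9.16 in liver, 8.26, 8.37 and 8.31 in brain, and 9.27, 9.30 and 9.30 in lung. Its brain arrays were the lowest, but liver minus brain (0.87) and brain minus lung (-0.98) stayed under 2-fold. The brightest probe sets of Ssr1 and Ssr3 gave liver minus brain differences of 0.90 and 0.76, under 2-fold. Another probe set of Ssr1 was called at 1.5, and the other 2 of Ssr3 at 1.16 and 1.14.

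Signal peptidase has a catalytic subunit in either of 2 forms, Sec11a and Sec11c. Brain was lowest for Sec11a and highest for Sec11c, while liver was above lung for both. Sec11a was at 9.71, 9.74 and 9.73 in liver, 8.36, 8.37 and 8.35 in brain, and 9.63, 9.59 and 9.68 in lung. Brain was lowest, 2.58-fold under liver (1.37 ± 0.04, limma adjusted p = 5.33e-25) and 2.41-fold under lung. Sec11c was at 9.21, 9.25 and 9.14 in liver, 10.18, 10.29 and 10.27 in brain, and 8.03, 8.05 and 8.15 in lung. No arrays of different tissues overlapped: brain was 2.06-fold above liver (liver minus brain -1.04 ± 0.05, limma adjusted p = 1.27e-20) and 4.49-fold above lung, and liver was 2.18-fold above lung. The liver minus brain value of Sec11c fell below 2-fold when arrays were centred on their medians (-0.80), and its liver minus lung call was lost with the control curve (0.33). Spcs1, an accessory subunit, was highest in lung at 11.54, 11.48 and 11.49, against 10.11, 10.17 and 10.18 in liver, which was 2.55-fold lower. The accessory subunits Spcs2 and Spcs3 were not called.

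All 4 ER chaperones of the group have the ER stress response element (ERSE) in the promoter window that was searched. The element is bound by NF-Y together with ATF6 when unfolded proteins accumulate, as background. The search looked for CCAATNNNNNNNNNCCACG on both strands in RefSeq promoter windows of the rat build GRCr8, which run from 250 bases before the transcription start to 50 after it. It was present in 22 of 33469 windows (0.0657%) and in 4 of the 56 member genes with a window (7.14%). It was not found in the other 52. These 4 genes are chaperones chosen by name, and the element was picked as already tied to ER stress. Matches in them could be foreseen, so the higher share among members is no result about the pathway. The background share counts windows and the member share counts genes, so they are not like for like either. The related element ERSE-II, ATTGG and CCACG with a single base between them, was in 17 windows (0.0508%) and in none of the members. The short part CCACG alone was in 31.6% of all windows and in 38 of the 56. The 4 windows are shown because they are the member promoters with the full element. Capitals mark its CCAAT and CCACG parts, or their reverse complements ATTGG and CGTGG, and each window is printed 5′ to 3′ on the strand of the gene. They lie at chr3:38452766-38453065 (plus strand, Hspa5), chr7:23012244-23012543 (minus strand, Hsp90b1), chr19:40213117-40213416 (plus strand, Calr) and chr10:35157808-35158107 (minus strand, Canx).
Hspa5 promoter: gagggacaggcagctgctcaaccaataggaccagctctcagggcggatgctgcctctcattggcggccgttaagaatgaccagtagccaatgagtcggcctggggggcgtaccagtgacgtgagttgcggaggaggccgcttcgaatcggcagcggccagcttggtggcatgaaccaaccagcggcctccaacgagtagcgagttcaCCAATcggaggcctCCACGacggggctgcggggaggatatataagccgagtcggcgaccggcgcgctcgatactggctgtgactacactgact
Hsp90b1 promoter: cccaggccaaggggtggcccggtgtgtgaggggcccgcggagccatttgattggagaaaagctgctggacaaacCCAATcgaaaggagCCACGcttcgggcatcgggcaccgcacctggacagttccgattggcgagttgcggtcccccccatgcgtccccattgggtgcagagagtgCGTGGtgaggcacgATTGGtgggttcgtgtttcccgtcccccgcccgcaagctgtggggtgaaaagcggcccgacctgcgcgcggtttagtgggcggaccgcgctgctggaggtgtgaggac
Calr promoter: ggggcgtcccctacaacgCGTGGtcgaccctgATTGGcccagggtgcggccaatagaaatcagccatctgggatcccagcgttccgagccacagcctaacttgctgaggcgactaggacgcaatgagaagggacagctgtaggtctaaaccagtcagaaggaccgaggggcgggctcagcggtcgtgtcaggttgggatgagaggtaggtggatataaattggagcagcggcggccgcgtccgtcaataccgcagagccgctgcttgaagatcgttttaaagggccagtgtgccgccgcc
Canx promoter: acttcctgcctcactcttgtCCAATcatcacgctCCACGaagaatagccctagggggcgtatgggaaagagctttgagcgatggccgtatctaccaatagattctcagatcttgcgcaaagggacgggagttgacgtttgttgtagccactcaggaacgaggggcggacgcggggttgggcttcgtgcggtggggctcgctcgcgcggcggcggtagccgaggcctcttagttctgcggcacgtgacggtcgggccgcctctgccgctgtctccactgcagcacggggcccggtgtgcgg
The Hspa5 copy begins 43 bases before the start, Hsp90b1 has 2 copies between 176 and 53 bases before it, and the copies of Calr and Canx lie between 232 and 211 bases before it. A match describes letters in the window and shows no binding. No promoter entry was matched for Sec61a1, Sec61a2, Pdia3, Pdia6, Sec24c and Sec24d.

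Of these 4 chaperones, 3 were called higher in liver than in brain, and 2 of them also higher in liver than in lung; brain and lung did not differ by 2-fold for any. Hspa5, the lumenal chaperone BiP, was at 12.35, 12.20 and 12.36 in liver, 11.06, 11.32 and 11.24 in brain, and 11.03, 11.07 and 11.06 in lung. Liver was above both other tissues without overlap, by 1.10 ± 0.05 over brain (2.14-fold, limma adjusted p = 2.27e-20) and 1.25 over lung (2.37-fold). With quantile normalization repeated, the liver minus brain value of Hspa5 was 0.98 and no longer called. Calr, the calcium-binding chaperone calreticulin, was at 10.81, 10.73 and 10.84 in liver, 9.38, 9.47 and 9.40 in brain, and 9.62, 9.54 and 9.49 in lung. Its liver arrays too were the highest, 2.60-fold over brain and 2.36-fold over lung (the latter 0.93 and not called with the control curve). Hsp90b1, the lumenal Hsp90 known as GRP94, was 2.12-fold higher in liver than in brain and 1.79-fold higher than in lung. Canx, the membrane-bound partner of calreticulin, was at 10.57, 10.57 and 10.49 in liver, 11.30, 11.28 and 11.33 in brain, and 10.78, 10.78 and 10.81 in lung. Its brightest probe set was thus highest in brain, under the fold limit, while its other 2 probe sets had their highest means in liver, at 10.03 and 10.55 against 9.27 and 9.93 in brain. The median liver minus brain difference was 1.09 for these 4 genes and 0.87 for the 52 genes with a window and no element. The values ran from -0.76 to 1.38 and from -2.71 to 5.46. A link between the element and the tissue differences was not tested.

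The protein disulfide isomerases, which form and reshuffle disulfide bonds, held 4 of 6 genes called higher in liver than in brain and none called higher in brain, with a median difference of 2.05. Pdia5 was at 9.20, 9.11 and 9.08 in liver, 5.24, 4.59 and 5.40 in brain, and 7.72, 7.65 and 7.60 in lung. The tissues did not overlap, and the brain arrays were low and spread more than those of the other tissues. Liver exceeded brain by 4.05 ± 0.11 (16.6-fold, limma adjusted p = 7.14e-27) and lung by 1.47 (2.77-fold). Counted from 5.73, since its brain mean was lower than that, liver was at least 10.6-fold above brain. Pdia4 was at 11.56, 11.68 and 11.57 in liver, 8.21, 8.35 and 8.34 in brain, and 9.34, 9.26 and 9.27 in lung. Its liver arrays stood well apart, by 3.30 ± 0.05 from brain (9.87-fold, limma adjusted p = 2.53e-34) and 2.31 from lung (4.97-fold). P4hb, the archetypal isomerase and also a subunit of collagen prolyl 4-hydroxylase, was at 11.64, 11.80 and 11.64 in liver, 8.86, 9.03 and 8.91 in brain, and 10.72, 10.83 and 10.71 in lung. Brain was its lowest tissue, 6.77-fold under liver and 3.54-fold under lung, and the liver minus lung difference of 0.94 was just under the limit. Pdia3, the isomerase that works with calnexin and calreticulin on glycoproteins, was 2.52-fold higher in liver than in brain with its brightest probe set; with its other probe set the value was 0.74 and not called, and liver minus lung was called at 1.59. The liver minus lung call of Pdia5 was lost with the control curve (0.67), while Pdia4 kept its call at 2.11.

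The COPII coat and its ER exit sites had 6 of 8 genes called higher in liver than in brain and none higher in brain. Sec16b, the shorter paralog of the exit site scaffold Sec16a, had the widest measured range of all members, at 9.14, 9.15 and 9.16 in liver, 3.76, 3.74 and 3.57 in brain, and 4.66, 4.84 and 4.55 in lung. Liver was far above both other tissues, by 5.46 ± 0.07 over brain (44.0-fold, limma adjusted p = 2.00e-37) and 4.47 ± 0.07 over lung (22.1-fold). Its brain and lung values lay under 5.73, and the absent control transcripts reached 3.22, so these folds rest on low levels; counted from 5.73, liver was at least 10.7-fold higher than either. For Sec16a the brightest probe set was 1.83-fold higher in liver than in brain and not called, while its other probe set was called at 1.41. Sec24d, a cargo-binding subunit of the inner coat, was at 10.23, 10.27 and 10.25 in liver, 6.09, 6.18 and 6.35 in brain, and 8.61, 8.61 and 8.63 in lung. Each tissue was separate, with liver above brain by 4.04 ± 0.05 (16.5-fold, limma adjusted p = 2.52e-37), liver above lung by 1.63 (3.10-fold) and lung above brain 5.31-fold. Its paralog Sec24c was 2.1-fold higher in liver than in brain, and its paralog Sec24b had its highest mean in lung, not called by its brightest probe set and called over liver by the other (liver minus lung -1.18). Sec23b, the partner subunit of Sec24, was at 9.30, 9.31 and 9.29 in liver, 7.56, 7.56 and 7.59 in brain, and 9.27, 9.29 and 9.27 in lung. Liver and lung differed by 0.02, within the error of the fit (limma adjusted p = 0.662), and both were above brain, 3.31-fold and 3.26-fold. The outer cage genes Sec13 and Sec31a were 2.25-fold and 2.42-fold higher in liver than in brain, calls that were lost with the control curve, as was that of Sec24c. With the curve 1 gene of this role was called higher in brain than in liver.

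The 10 Tmed genes were grouped by symbol as p24 cargo receptors, membrane proteins that cycle between the ER and the Golgi. Of these, 5 were called higher in liver than in brain and 2, Tmed8 and Tmed4, higher in brain. Tmed5 was at 7.88, 7.94 and 7.82 in liver, 5.77, 5.86 and 5.69 in brain, and 6.28, 6.22 and 6.34 in lung. Liver was highest without overlap, by 2.11 ± 0.08 over brain (4.30-fold, limma adjusted p = 6.59e-22) and 1.60 over lung (3.02-fold, but 0.66 and not called with the control curve). Tmed8, placed here by its symbol alone, was at 6.79, 6.92 and 7.07 in liver, 8.68, 8.75 and 8.72 in brain, and 8.26, 8.33 and 8.19 in lung. Liver was its lowest tissue, 3.46-fold under brain (liver minus brain -1.79 ± 0.06, limma adjusted p = 2.01e-23) and 2.51-fold under lung. Tmed4, at 7.92, 7.96 and 7.91 in liver against 8.87, 9.05 and 8.96 in brain and 8.87, 8.94 and 8.93 in lung, was also lowest in liver. Its call for liver against brain sat at the limit and was lost with median centring (-0.78), quantile normalization (-0.92) or without the second brain array (-0.99). The other probe set of Tmed4 gave 0.27 for liver minus brain and was not called. Tmed2, Tmed9 and Tmed10 were 2.31-fold to 2.46-fold higher in liver than in brain. Tmed1 was 2.02-fold higher, a call that was lost without liver replicate 2 (0.95) or brain replicate 1 (0.99). Tmed3 was 2.55-fold higher in lung than in brain.

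In the COPI coat, which carries proteins back from the Golgi, 2 of 8 genes were called higher in liver than in brain and none higher in brain. Over all genes these shares were 19.3% and 20.0%. Both called genes encode the zeta subunit. Copz2 was at 8.74, 8.63 and 8.62 in liver, 5.52, 5.25 and 5.21 in brain, and 7.01, 7.12 and 7.07 in lung. The tissues were separate, with liver over brain by 3.34 ± 0.08 (10.1-fold, limma adjusted p = 6.30e-29), liver over lung by 1.60 (3.04-fold, but 0.70 and not called with the control curve) and lung over brain 3.33-fold. Its brain mean was under 5.73, and counted from there liver was at least 7.67-fold above brain. Copz1 was at 9.99, 10.03 and 9.92 in liver, 8.82, 8.88 and 8.86 in brain, and 9.54, 9.58 and 9.54 in lung, and liver was 2.19-fold over brain. The paired gamma subunit genes Copg1 and Copg2 and the genes of the alpha, beta and epsilon subunits were not called.

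The 3 Sec22 genes, of which Sec22b encodes the SNARE of vesicles between the ER and the Golgi, had 3 different patterns. Sec22c was at 4.61, 5.02 and 5.37 in liver, 7.87, 7.56 and 7.72 in brain, and 6.65, 6.79 and 6.64 in lung. Brain was highest and liver lowest without overlap, with a liver minus brain difference of -2.71 ± 0.11 (6.55-fold, limma adjusted p = 2.39e-22) and under lung 3.23-fold. Its liver mean of 5.00 was under 5.73; counted from there, brain was at least 3.97-fold and lung at least 1.96-fold above liver. The brain over lung call of Sec22c, 2.03-fold, was lost without brain replicate 1 (0.94), lung replicate 1 (1.0) or lung replicate 3 (0.99). It was also lost with the control curve (0.94). Another probe set of Sec22c gave 0.56 for brain minus lung and -0.71 for liver minus lung, neither called. A further one gave 1.27 and -2.07, both called. Sec22a was at 7.65, 7.88 and 7.66 in liver, 6.10, 6.31 and 6.07 in brain, and 7.31, 7.44 and 7.22 in lung, so that brain was lowest, 2.97-fold under liver and 2.24-fold under lung. Sec22b was not called.

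For liver minus lung, the direction of the role medians rested on the scaling. On the deposited scale the medians ran from 0.21 to 1.04 over the 10 roles. With the control curve they stayed above 0 only for the ER chaperones (0.88) and the protein disulfide isomerases (0.51), and turned to between -0.55 and -0.07 for the other 8 roles. Set against the all-gene median of the same scaling, all 10 were above it on the deposited scale and with the curve. The curve moves bright and dim genes by unlike amounts, and the members were brighter than all genes (9.04 against 6.79). The comparison with the all-gene median under the curve therefore cannot show that the direction is free of the scaling. For liver minus brain, the curve moved the COPI median from 0.62 to 0.01 and the p24 median from 0.99 to 0.22. Calls higher and lower in liver than in brain were then 3 and 1 for COPII, 2 and 2 for p24, and 0 and 2 for signal peptidase. The ER chaperones kept 3 and 0, and the isomerases 4 and 0.

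The mixtures put the same genes through known exchanges of tissue. They were made of the labelled RNA of the same tissues, so agreement with the pure calls is no independent repeat of them. Between the mixture of 70% liver, 25% brain and 5% lung and that of 25% liver, 70% brain and 5% lung, 41 genes were higher in the liver-rich mixture and 12 in the brain-rich one (limma adjusted p under 0.05, no fold limit), against 29.3% and 32.5% of all genes. All 32 genes called between pure liver and brain were called the same way here. The sign of the share-weighted sum of the pure levels was seen for 60 of 62 differences. Another 21 genes were called here, where no fold limit applied, and not between the pure tissues, where 2-fold was needed. Pdia6, at 0.98 for pure liver minus brain, was among them. Sec16b differed by 1.97 ± 0.07 where the weighted sum gave 1.40. For Sec22c the difference was -0.74 and the sum gave -1.0, and for Sec61a2 it was -0.48 and the sum gave -0.64.

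The exchange of liver for lung compared 70% liver, 25% brain and 5% lung with 5% liver, 25% brain and 70% lung. It called 37 genes higher in the liver-rich mixture and 13 in the lung-rich one, against 32.7% and 37.3% of all genes. All 13 pure liver against lung calls had the same direction here. As the mixtures held the same labelled RNA and no fold limit applied, such agreement is no independent support. Sec16b differed by 3.50 (weighted sum 3.02), Pdia4 by 1.91 (1.77) and Spcs1 by -0.83 (-0.84). The exchange of brain for lung at 70% liver called 10 genes higher with more brain and 25 with more lung, against 23.0% and 31.4%, and repeated all 14 pure calls. Sec61a2 differed by 0.84 there (weighted sum 0.47), Sec11c by 0.61 (0.43) and Tmed3 by -0.42 (-0.24). The 3 exchanges share the arrays of the 70% liver, 25% brain and 5% lung mixture. With the control curve their counts were 8, 9 and 3 higher in that mixture, and 8, 8 and 0 lower. The exchange of liver for brain thus gave 8 and 8 there.

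**Figure D3:**
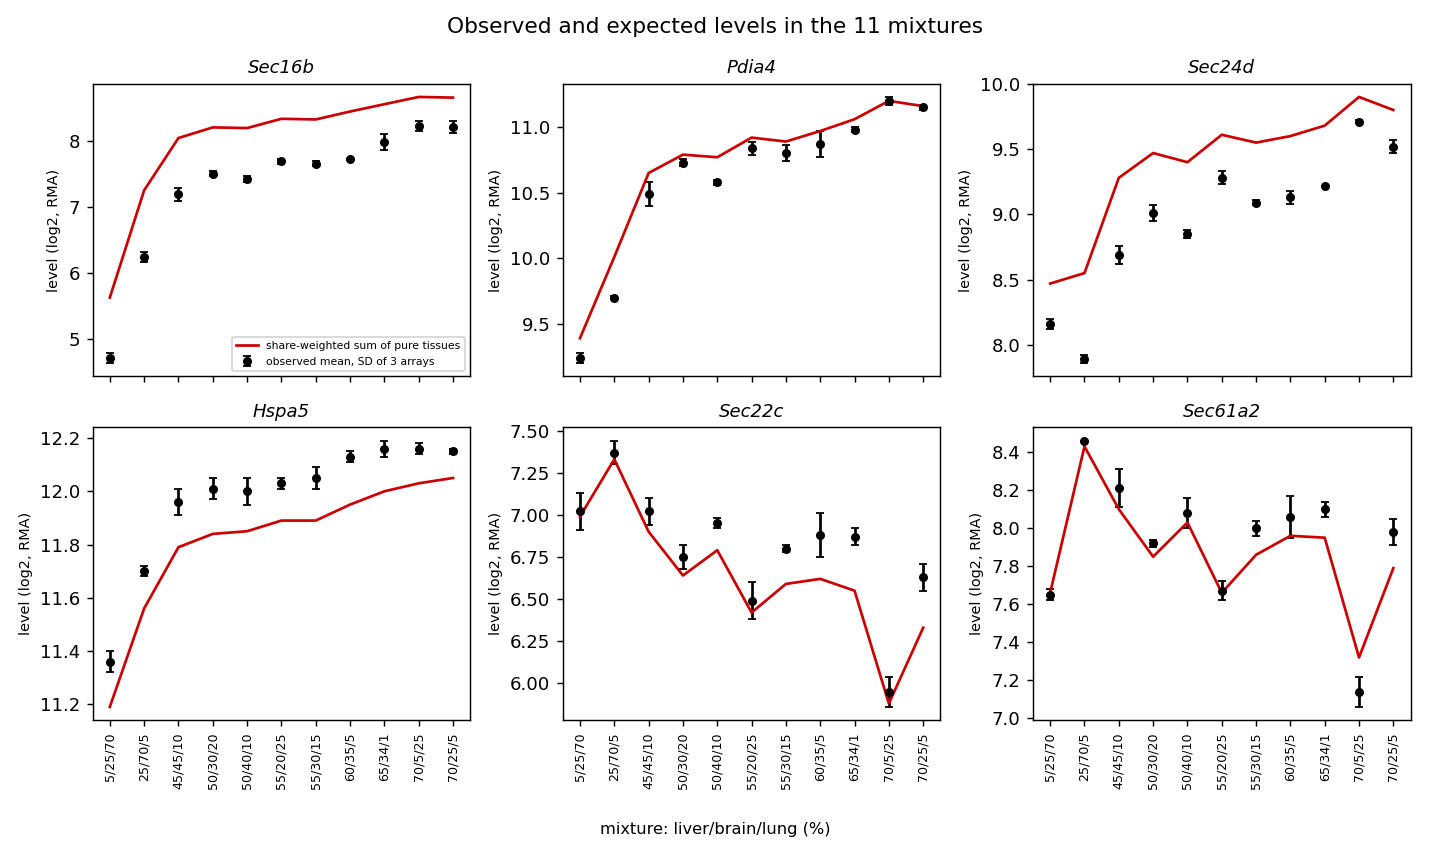
Level (log2, RMA) of 6 member genes in the 11 mixtures, ordered by liver percentage; points are means of 3 arrays with SD, and the red line is the share-weighted sum of the linear pure tissue levels. Sec16b lies below the line in each mixture, by 0.44 to 1.01, Hspa5 lies above it in each by 0.10 to 0.18, and Pdia4 follows it to within 0.31.

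Linear mixing was checked by subtracting the log2 of the share-weighted sum from the observed log2 level in each mixture and averaging over all 11. No member was called above the sum at 1.5-fold (0.492% of all genes) and 3 were called below it (5.56% of all genes). These were Sec16b at -0.70 ± 0.05 (limma adjusted p = 2.14e-14), Copz2 at -0.66 ± 0.05 and Pdia5 at -0.61 ± 0.07. All 3 had brain means under 5.73, and Pdia5 fell under the limit without liver replicate 1 (-0.58). The expected level of Sec16b in the mixture with 5% liver was 5.63 and the observed mean 4.72, and in the mixture with 25% liver they were 7.25 and 6.24. Next below the sum came Tmed1 at -0.54 and the cage gene Sec31a at -0.53, both short of 1.5-fold. The genes farthest above it were Tmed8 at 0.16 ± 0.03, Sec22c at 0.15 ± 0.06, Hspa5 at 0.15 ± 0.03, P4hb at 0.08 and Sec61a2 at 0.06, none near the fold limit; Hspa5 was above the sum in 11 of 11 mixtures. The member median was -0.17 against -0.21 for all genes, and 51 of 62 genes were below 0. In single mixtures, 55 to 62 of the 62 genes lay within 1.5-fold of the sum. With the control curve the 3 calls were lost, at -0.27 each. With a weighted mean of log2 levels in place of the sum, which is never above it, Sec16b departed by 0.73, Pdia5 by 0.14 and Copz2 by -0.11.

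**Figure D4:**
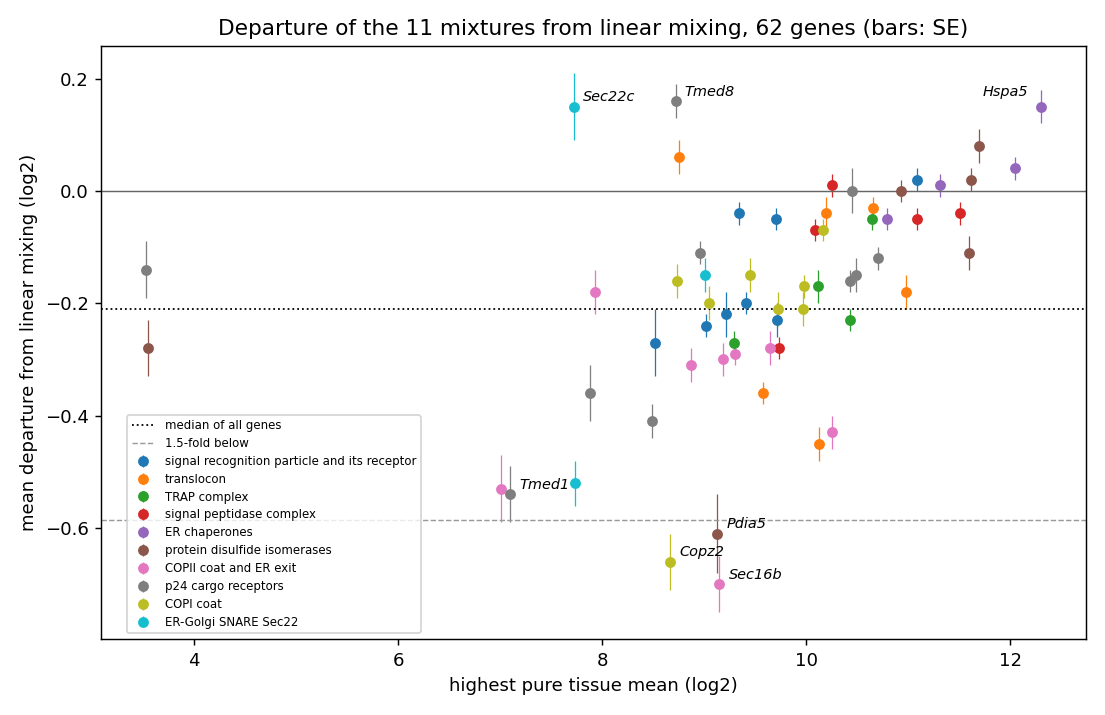
Mean departure of the 11 mixtures from linear mixing (log2, with SE) against the highest pure tissue mean (log2) for the 62 genes coloured by role; the dotted line is the median of all genes, -0.21, and the dashed line is 1.5-fold below. The 3 called genes Sec16b, Copz2 and Pdia5 lie under the dashed line, and Hspa5, Tmed8 and Sec22c are the highest, at 0.15 to 0.16.

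Other genes of the pathway were counted from lists by function. Over all genes, the shares called higher and lower in liver were 19.3% and 20.0% against brain, and 13.8% and 20.6% against lung. Of 22 genes of ER-associated degradation, which removes misfolded proteins, 10 were higher in liver than in brain and none lower, and 9 were higher in liver than in lung and none lower. Derl2, which encodes a derlin of that system, averaged 7.50 in brain, 8.51 in lung and 10.71 in liver. Of 28 genes of ER exit and cargo receptors, 14 were higher in liver than in brain and 1 lower, and 10 were higher in liver than in lung and 1 lower; the retrieval receptor gene Kdelr3 was highest in lung at 8.55, against 5.91 in liver and 4.44 in brain. Of 48 genes of ER folding outside the chosen symbols, 22 were higher and 6 lower in liver than in brain, and 15 higher and 11 lower in liver than in lung. Dnajc3, a BiP co-chaperone, averaged 6.46 in brain, 7.76 in lung and 10.53 in liver.

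The ER stress sensors and regulators gave 4 of 18 genes higher in liver than in brain and none lower, and 2 higher and 2 lower in liver than in lung, with a median of -0.04. Among them Creb3l3, a liver transcription factor held in the ER membrane, was at 10.91, 5.06 and 5.00 in liver, brain and lung. Translocation and protein modification genes gave 10 of 22 higher and 3 lower in liver than in brain, and 3 higher and 2 lower in liver than in lung. Tusc3, a subunit of oligosaccharyltransferase, was highest in brain, at 10.92 against 5.30 in liver and 8.84 in lung. For later steps of the route, of 43 tethers, Rabs and SNAREs 4 were higher and 6 lower in liver than in brain, and 3 higher and 4 lower in liver than in lung. Of 12 COPI regulators 2 were higher and 2 lower in liver than in brain, and none higher and 1 lower in liver than in lung. Rab6b, a neuronal Rab of the Golgi, averaged 11.25 in brain, 7.63 in lung and 4.29 in liver. The backgrounds are the shares of all genes given above for the same comparisons.

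**Figure D5:**
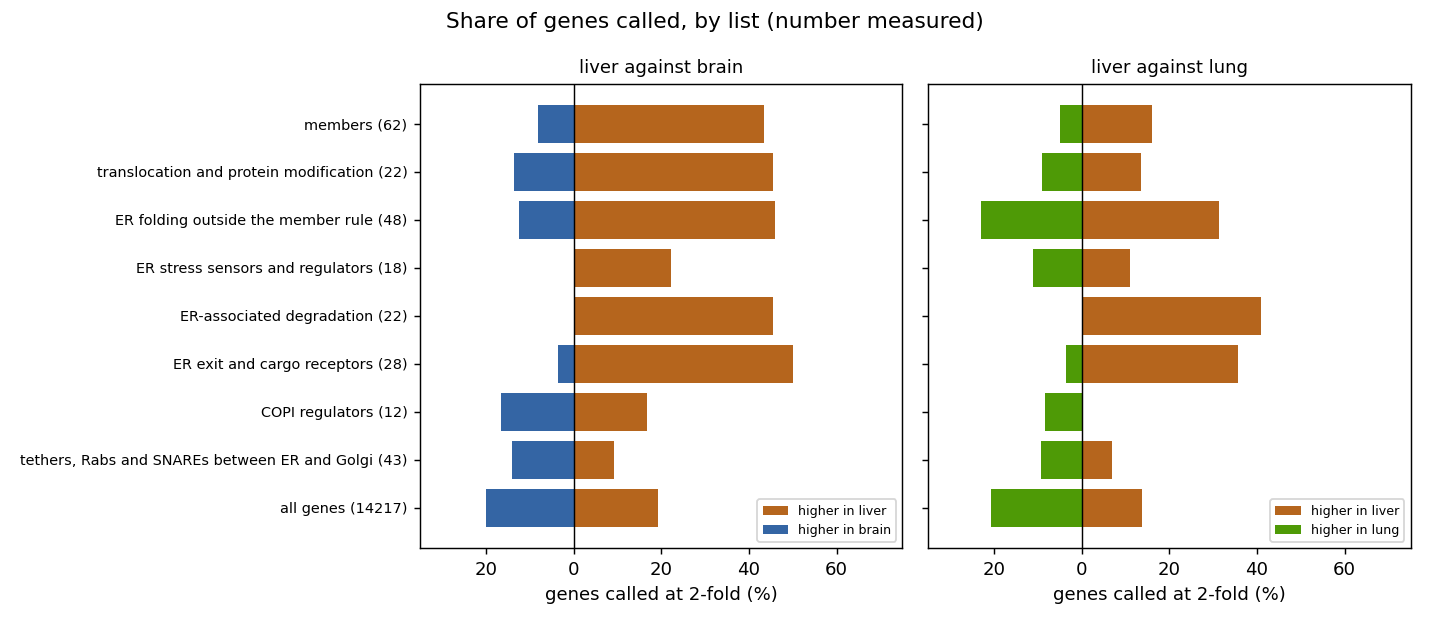
Percentage of the genes of each list called at 2-fold higher in liver (bars to the right) or in the other tissue (bars to the left), for liver against brain and liver against lung, with the number measured in brackets. The members have 27 and 5 of 62 genes called for liver against brain, ER-associated degradation has 10 and 0 of 22, and tethers, Rabs and SNAREs have 4 and 6 of 43; the last bar is the share of all genes, 19.3% and 20.0%.

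Where a gene had several probe sets, the values above are those of the brightest. Among the 23 genes with more than 1 probe set, the sign of the difference differed between probe sets for 7 genes in liver minus brain, 4 in liver minus lung and 6 in brain minus lung, and in none were probe sets called in opposite directions. A call differed between the brightest and another probe set for 9 genes in liver against brain, 7 in liver against lung and 2 in brain against lung. In liver against brain, Sec16a, Ssr1, Ssr3 and Tmed7 were called only by another probe set, all higher in liver, and Pdia3, Sec31a, Sec61a1, Sec63 and Tmed4 had a probe set that was not called. In liver against lung, Pdia3, Sec63, Srprb and Tmed7 were called higher in liver and Sec24b higher in lung only by another probe set. A further probe set of Sec61a1 gave 0.63 for liver minus brain, 0.59 for liver minus lung and -0.04 for brain minus lung, none called. For Sec22c, a probe set other than the brightest was not called for liver minus lung (-0.71) or brain minus lung (0.56). With the probe set of largest spread per gene, 30 members were higher in liver than in brain and 14 higher in liver than in lung. For Tmed4 the probe sets gave -1.03 and 0.27 for liver minus brain. The gene pairs Copg1 and Copg2, and Sec61a1 and Sec61a2, encode closely related proteins, and whether probes of one also detect the other was not tested.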

How the data were processed

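RNA of rat liver, brain and lung was hybridised pure and as 11 cRNA mixtures, 3 arrays per group. The deposited table holds log2 values summarised by RMA, per the submitters' processing notes; software version, scan batches and further settings are not given in the sources used here. Of 31099 probe sets, 57 controls were left out. Gene names came from the array's platform annotation: 20826 probe sets had 1 gene, 436 several and 9780 were not listed; all 62 member genes were found in the GRCr8 gene table. A gene was read from its brightest probe set.

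All 14 groups were fitted with limma 3.58.1 (R 4.3.3) over 31042 probe sets, with Benjamini-Hochberg adjustment per comparison over all of them, and the fit was tested on simulated data. Calls needed an adjusted p under 0.05 and 2-fold between pure tissues, no fold limit between mixtures, and 1.5-fold for the departure from linear mixing, whose SE came from the delta method. Values on every pure array are given for the 2 genes of each role with the widest range over the pure means and for those called higher in 1 tissue than in both others; a few relatives were added after their values were seen. For departures the 5 highest and 5 lowest genes are named, and for other lists up to 3 called genes of wide range. Precision is limited by the 3 arrays per group. Members and lists were chosen with earlier results of these data known. Alternatives covered scaling, background, filter, probe set choice, variance model, arrays in the fit, mixing scale and each replicate left out.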

Additional observations from a re-analysis of the deposited data

How the results depend on the processing

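With the hybridisation control curve, the members called were 16 higher in liver and 9 higher in brain (27 and 5 as reported), 4 higher in liver and 8 higher in lung (10 and 3), and 19 higher in lung than in brain (11). In the mixtures the curve left 8 genes higher and 8 lower in the 70/25/5 mixture (liver, brain and lung percentages) than in 25/70/5 (41 and 12 as reported). It left 9 higher and 8 lower than in 5/25/70 (37 and 13), and 3 higher and 0 lower than in 70/5/25 (10 and 25). There were 0 departures below the sum (3). Median centring gave 3 genes higher in brain than in liver and 8 departures below. Mixing on the log2 scale gave 2 departures above and 0 below, and Sec16b (0.73) and Pdia5 (0.14) changed sign, since a weighted mean of logs is never above the log of the weighted sum. The causes of the other changes were not tested. The remaining alternatives kept each count of members within 1.5 times its value. Leaving out 1 replicate array gave 26 to 27 and 4 to 5 genes for liver against brain, 10 to 10 and 3 to 4 for liver against lung, 2 to 3 and 11 to 14 for brain against lung, 40 to 42 and 10 to 12, 32 to 35 and 11 to 13, and 8 to 10 and 20 to 24 for the exchanges in the order above, and 0 to 0 and 2 to 3 for departures. No paired analysis was possible because the replicate numbers were given in accession order and the labels carry none.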
